A study of Homo sapiens with 6 samples.

Results

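The mRNA of TICAM1 and of 9 other genes of innate immune signalling was followed in RNA recovered by pulldown with the FERRY complex or with its affinity tag alone. The 10 genes, all found in the table of 60676 gene IDs by symbol, were the adaptors TICAM1, MYD88 and MAVS, the ubiquitin ligases TRAF3 and TRAF6, the kinases RIPK1, TBK1 and MAP3K7, the kinase partner TAB1 and the transcription factor IRF3. TICAM1 was chosen by its measured fold change and call between the baits, so its own contrast is given as a description, and the other 9 were chosen by function, for their place in the same pathways, with their values known. All 10 passed the filter on low counts, which left 15546 genes.

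One bait was the complex fused to glutathione S-transferase (GST-Ferry, 3 libraries), and the control bait was GST by itself (GST, 3 libraries). FERRY is a complex of 5 proteins that binds the early endosomal GTPase RAB5. Both baits were held on glutathione resin and incubated for 1.5 h with the same kind of lysate, from HEK 293 cells, a human embryonic kidney line grown in suspension, and the RNA left after washing was depleted of ribosomal RNA and sequenced. No input RNA was analysed here, so a value is the share of a pulldown library, and more of 1 RNA cannot be told apart from less of the others. The GST-Ferry libraries held 2454538 to 6532665 counts, with GST-Ferry 1 the deepest, and the GST libraries held 7390346 to 10466520 counts. All 9 markers of HEK 293 cells looked for were detected in every library, summing to 1450 to 2140 CPM (counts per 1000000 of the scaled library) with GST-Ferry and 939 to 1120 CPM with GST, while 9 markers of blood and immune cells summed to at most 2.39 CPM with GST-Ferry and 1.82 CPM with GST, with CD3E and HBB at 0 throughout. GST-Ferry 1 and GST 3 stood apart from the other libraries of their bait: a chi-square per degree of freedom between libraries was 16.2 and 24.3 with GST-Ferry 1 against 4.15 without it, and 55.8 and 59.7 with GST 3 against 13 without it. Such a chi-square grows with depth, and GST-Ferry 2 and 3 were the shallowest libraries, so the GST-Ferry values are not compared at equal depth. Where leaving out GST-Ferry 1 or GST 3 moved the log2 fold change of any of the 10 genes by over 1.5 times, that value is also given. For the pathway genes and the neighbours such values are not given, so theirs may depend on either library. The mRNAs of the bait subunits took 0.249%, 2.72% and 5.35% of counts in GST-Ferry 1, 2 and 3, against 0.0359% to 0.0504% in the GST libraries. The rise was in PPP1R21, C12orf4 and TBCK, with log2 fold changes of 8.83, 6.73 and 5.3. GATD1 and CRYZL1 had 0.118 and -0.495, with adjusted p-values of 0.808 and 0.248 by edgeR's quasi-likelihood test.

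Toll-like receptors sense microbial molecules and pass the signal to adaptors that carry a TIR domain. TICAM1, also called TRIF, is the adaptor of TLR3 and, on endosomes, of TLR4, whereas MYD88 serves most other Toll-like receptors and the interleukin-1 receptor, and MAVS on mitochondria serves the RNA sensors RIG-I and MDA5. TRAF3 leads to the kinase TBK1 and to IRF3, which induces interferon-beta, and TRAF6 and RIPK1 lead to the kinase MAP3K7 (TAK1) with TAB1 and on to NF-kappaB.

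The transcripts of these genes differ in base composition, which is shown here because the fold changes below are set beside it. Each line gives 120 bases of coding sequence from the GENCODE 29 transcript of the gene, chosen as the in-frame window whose GC content is nearest to that of the whole coding sequence, with G and C in capitals. The TICAM1 window covers coding bases 394 to 513, that of TAB1 13 to 132, that of MAP3K7 211 to 330 and that of TBK1 46 to 165, counted from the A of the start codon.
TICAM1: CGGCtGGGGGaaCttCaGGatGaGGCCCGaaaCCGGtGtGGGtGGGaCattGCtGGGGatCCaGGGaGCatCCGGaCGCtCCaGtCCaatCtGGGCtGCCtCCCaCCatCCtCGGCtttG
TAB1: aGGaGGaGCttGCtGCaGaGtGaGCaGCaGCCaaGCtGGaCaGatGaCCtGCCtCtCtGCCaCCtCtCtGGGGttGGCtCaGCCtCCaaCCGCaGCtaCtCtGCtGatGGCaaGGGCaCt
MAP3K7: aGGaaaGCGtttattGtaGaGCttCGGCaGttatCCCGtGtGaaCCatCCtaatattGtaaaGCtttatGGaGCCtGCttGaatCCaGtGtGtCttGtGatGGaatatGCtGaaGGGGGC
TBK1: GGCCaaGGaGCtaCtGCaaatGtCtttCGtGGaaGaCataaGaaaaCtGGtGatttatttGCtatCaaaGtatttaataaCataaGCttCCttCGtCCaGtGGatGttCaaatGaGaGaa
The GC content of these windows was 64.2% for TICAM1, 60.8% for TAB1, 45% for MAP3K7 and 37.5% for TBK1.

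TICAM1 mRNA was several times more abundant with GST-Ferry than with GST, and unevenly so. It had 11.9, 35.4 and 35.7 CPM in GST-Ferry 1, 2 and 3, against 6.03, 7.11 and 6.04 CPM in GST 1, 2 and 3. The groups did not overlap, the GST libraries lay close together, and GST-Ferry 1 lay far nearer to them than to the other GST-Ferry libraries. Over the GST mean, TICAM1 was 1.85-fold in GST-Ferry 1, 5.54-fold in GST-Ferry 2 and 5.58-fold in GST-Ferry 3. The values rest on 81, 89 and 82 counts in GST-Ferry 1, 2 and 3 and on 62, 78 and 41 counts in GST 1, 2 and 3. The count was thus nearly the same in the 3 GST-Ferry libraries, although GST-Ferry 1 was 2.45 and 2.66 times as deep as the other two. Exact 95% Poisson intervals, which cover counting error only, ran from 9.41 to 14.7 CPM in GST-Ferry 1, 28.4 to 43.6 CPM in GST-Ferry 2 and 28.4 to 44.3 CPM in GST-Ferry 3, and from 4.33 to 8.87 CPM over the 3 GST libraries.

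TICAM1 averaged 27.6 ± 13.7 CPM with GST-Ferry and 6.39 ± 0.62 CPM with GST (SD, n = 3 each). The fitted log2 fold change was 2.06 ± 0.37 (SE), a 4.17-fold difference with a 95% interval of 1.25 to 2.87 on the log2 scale. TICAM1 was picked for these values and for its adjusted p, which was 0.042 (quasi-likelihood test of edgeR, Benjamini-Hochberg adjustment over all tested genes). Only the bait subunit mRNAs PPP1R21, C12orf4 and TBCK had a larger fold change among the 92 genes called higher, which were 0.592% of those tested, beside 5 called lower (0.0322%). The call was lost without GST-Ferry 2 (log2 fold change 1.79, adjusted p = 0.425 by edgeR's quasi-likelihood test), without GST-Ferry 3 (1.81, adjusted p = 0.41) and without GST 2 (2.12, adjusted p = 0.0957), and the log2 fold change was 2.47 without GST-Ferry 1. Over 18 alternatives in libraries, processing or threshold it ran from 1.67 to 2.47, and the call was lost in 7 of them.

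Few mRNAs of so low a level were called. Of 3152 tested genes whose GST mean lay within 2-fold of that of TICAM1, from 3.2 to 12.8 CPM, 5 were called higher (0.159%), and in 318 (10.1%) every GST-Ferry library lay above every GST library. Beside TICAM1 they were BEGAIN with 24 CPM with GST-Ferry and 7.23 CPM with GST, the AlkB-family dioxygenase ALKBH4 with 34.1 and 11.8 CPM, the cytochrome c oxidase assembly factor SCO2 with 25.2 and 9.23 CPM, and the twinfilin TWF2 with 21.8 and 8.86 CPM.

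**Figure D1:**
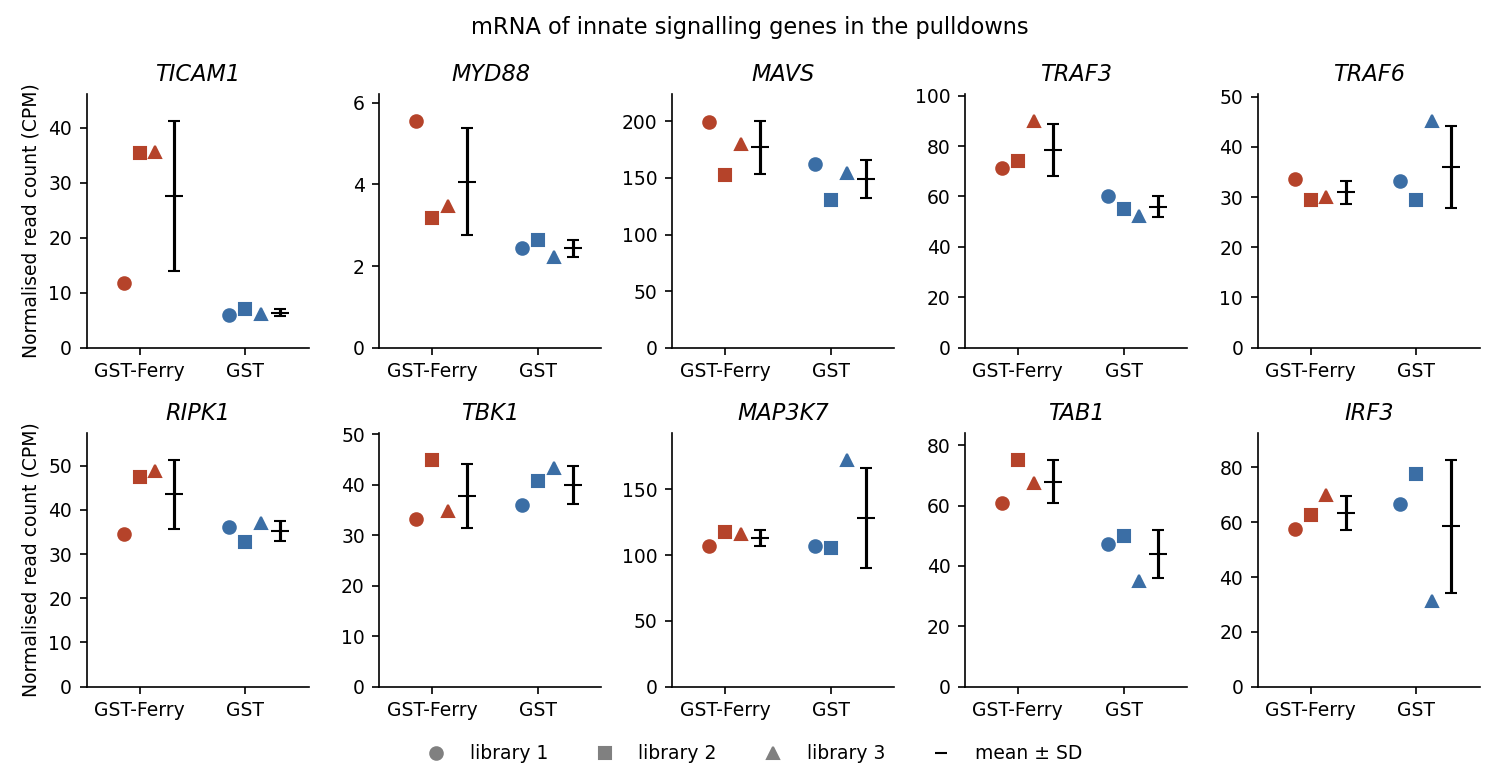
Normalised read count (CPM, axes from 0) of the 10 mRNAs in each GST-Ferry library (left of each panel) and GST library (right), with the mean and SD of 3 libraries beside the points. TICAM1 stands at 11.9 CPM in GST-Ferry 1 and at 35.4 and 35.7 CPM in the other two, above all GST libraries; GST 3 lies below all other libraries for IRF3, at 31.2 CPM, and above them for MAP3K7, at 172 CPM.

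The other adaptors differed less between the baits. MYD88 had 5.56, 3.18 and 3.48 CPM in GST-Ferry 1, 2 and 3, against 2.43, 2.64 and 2.21 CPM in GST 1, 2 and 3. All GST-Ferry values lay above all GST values, but GST-Ferry 2 and 3 rest on 8 counts each, and their 95% Poisson intervals (1.37 to 6.27 and 1.5 to 6.86 CPM) hold every GST value. The log2 fold change of MYD88 was 0.81 ± 0.38 (SE; 95% interval -0.02 to 1.63; adjusted p = 0.269 by edgeR's quasi-likelihood test), and 0.45 without GST-Ferry 1. MAVS had 199, 152 and 180 CPM in GST-Ferry 1, 2 and 3, against 162, 130 and 155 CPM in GST 1, 2 and 3. The groups overlapped, and its log2 fold change was 0.25 ± 0.19 (95% interval -0.17 to 0.67; adjusted p = 0.496 in the same edgeR test), and 0.16 without GST-Ferry 1.

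The MYD88 value was highest in GST-Ferry 1, where TICAM1 was lowest. The Poisson intervals of MYD88 in GST-Ferry 2 and 3 also hold its 5.56 CPM in GST-Ferry 1. Its course over the GST-Ferry libraries is therefore not resolved beyond counting error. There were 2.13, 11.1 and 10.2 TICAM1 counts for each MYD88 count in GST-Ferry 1, 2 and 3, and 2.48, 2.69 and 2.73 in GST 1, 2 and 3, on 38, 8 and 8 MYD88 counts with GST-Ferry and 25, 29 and 15 with GST. Against the other 9 mRNAs together, TICAM1 had 1.97, 5.84 and 5.57 counts per 100 in GST-Ferry 1, 2 and 3, and 1.09, 1.36 and 1.05 in GST 1, 2 and 3. These ratios do not depend on how the libraries are scaled.

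Of the ubiquitin ligases, TRAF3 lay higher with GST-Ferry in every library and TRAF6 did not. TRAF3, which joins TICAM1 and MAVS to TBK1, had 71.1, 74 and 90 CPM in GST-Ferry 1, 2 and 3, against 60.4, 55.1 and 52.3 CPM in GST 1, 2 and 3. Its log2 fold change of 0.48 ± 0.19 (95% interval 0.07 to 0.9) did not pass the test (adjusted p = 0.202 by edgeR's quasi-likelihood test). TRAF6, which builds ubiquitin chains downstream of MYD88, had 33.6, 29.4 and 30 CPM in GST-Ferry 1, 2 and 3 and 33.1, 29.5 and 45.2 CPM in GST 1, 2 and 3, with a log2 fold change of -0.20 ± 0.22 (95% interval -0.68 to 0.28; adjusted p = 0.647 in the edgeR test). The TRAF6 groups overlapped, GST 3 was the high library, and without it the log2 fold change was -0.03.

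The kinases gave small differences of both signs. RIPK1, which binds TICAM1 through a shared RHIM motif, had 34.5, 47.3 and 48.7 CPM in GST-Ferry 1, 2 and 3 and 36.1, 32.6 and 37 CPM in GST 1, 2 and 3. GST-Ferry 2 and 3 lay above all GST libraries, and GST-Ferry 1 lay among them. TBK1, the kinase of IRF3, had 33.2, 45 and 34.8 CPM with GST-Ferry against 36, 40.7 and 43.3 CPM with GST, and the groups overlapped. MAP3K7 had 107, 117 and 116 CPM with GST-Ferry against 107, 105 and 172 CPM with GST, and GST 3 stood far above all other libraries. By edgeR's quasi-likelihood test the log2 fold changes were 0.29 ± 0.21 for RIPK1 (95% interval -0.16 to 0.75; adjusted p = 0.461), -0.09 ± 0.21 for TBK1 (-0.54 to 0.35; adjusted p = 0.835) and -0.18 ± 0.22 for MAP3K7 (-0.66 to 0.3; adjusted p = 0.693), and without GST 3 that of MAP3K7 was 0.06. Without GST-Ferry 1 that of RIPK1 was 0.45 and that of TBK1 0.00276.

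TAB1, which activates MAP3K7, lay higher with GST-Ferry in every library. It had 61, 75.2 and 67.4 CPM in GST-Ferry 1, 2 and 3, against 47.2, 49.8 and 35.1 CPM in GST 1, 2 and 3. The groups did not overlap, and its log2 fold change was 0.62 ± 0.21 (95% interval 0.17 to 1.06; adjusted p = 0.145 by edgeR's quasi-likelihood test). Of the 18 alternatives, TAB1 and TRAF3 passed only that with GST-Ferry 1 and GST 3 both left out (edgeR log2 fold change 0.56, adjusted p = 0.0237 for TAB1 and 0.50, adjusted p = 0.0399 for TRAF3), where 11.5% of all genes were called higher. IRF3 had 57.5, 62.5 and 70 CPM in GST-Ferry 1, 2 and 3 against 66.6, 77.7 and 31.2 CPM in GST 1, 2 and 3. All GST-Ferry values lay within the range of the GST values, and the log2 fold change of 0.10 ± 0.29 (95% interval -0.51 to 0.72; adjusted p = 0.867 in the edgeR test) was -0.22 without GST 3 and 0.18 without GST-Ferry 1.

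Across the 10 mRNAs, 1 was called higher, TICAM1, and 0 were called lower by edgeR's quasi-likelihood test. At an unadjusted p under 0.05 there were 3 higher and 0 lower, beside 11.3% and 8.05% of all tested genes. DESeq2 called 1 higher and 0 lower, beside 3.37% and 1.14% of all tested genes, and limma-voom called 0 in either direction. In 4 of the 10, TICAM1, MYD88, TRAF3 and TAB1, every GST-Ferry library lay above every GST library, against 14.9% of all tested genes. In none did every GST-Ferry library lie below, against 12.2% of all tested genes. Since the genes were put forward with this contrast known, nothing is read from these counts. The median log2 fold change of the 10 was 0.27, and 0.25 without TICAM1, beside -0.03 over all tested genes.

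**Figure D2:**
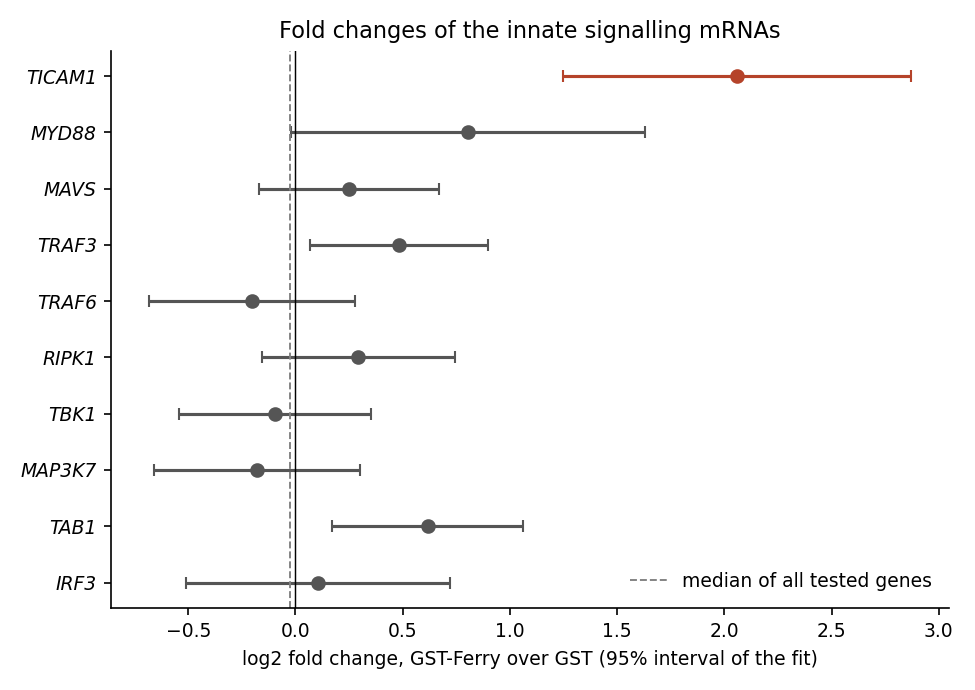
Fitted log2 fold change of GST-Ferry over GST with its 95% interval for the 10 mRNAs; the dashed line is the median of all tested genes, -0.03, and the mRNA in red is the 1 called. TICAM1 was picked for its fold change, so nothing is read from its place above the others. Its interval, 1.25 to 2.87, overlaps that of MYD88 (-0.02 to 1.63), the next highest at 0.81.

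Set against transcript length, the mean level of TICAM1 changed its place among the 10. Per kilobase of the GENCODE 29 transcript, TICAM1 had 10.3 CPM with GST-Ferry and 2.39 CPM with GST. With GST only MYD88 lay lower (1.43 CPM per kilobase with GST-Ferry and 0.852 with GST), and all others had at least 7.32 CPM per kilobase. With GST-Ferry the mean TICAM1 level was beside those of TRAF3 (10.3), RIPK1 (10.5) and TBK1 (11.6). No single library lay at this mean: before division by length, TICAM1 had 11.9 CPM in GST-Ferry 1 and 35.4 and 35.7 CPM in GST-Ferry 2 and 3. The most abundant was IRF3, with 36.4 CPM per kilobase with GST-Ferry and 33.6 with GST.

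Fold changes moved with base composition, among the 10 and over the whole table; the GC split and bins were chosen after the values were seen, and the part of composition in the fold changes is given only as far as the offsets below show it. The TICAM1 transcript was the most GC-rich of the 10, at 63%, above 92.2% of tested genes. Of the third codon positions in its coding sequence 73.2% were G or C, less than in TAB1 (75.8%) and IRF3 (74.1%). The GC content of the other transcripts was 61.5% for IRF3, 60.4% for TAB1, 54.5% for TRAF3, 53.8% for MYD88, 52.1% for MAVS, 49.6% for RIPK1, 41.9% for TRAF6, 39.3% for TBK1 and 38.7% for MAP3K7. The 7 above the median of tested genes, 48.6%, all had a log2 fold change above 0, and the 3 below it all had one under 0. This split did not hold in every set of libraries. Without GST 3, IRF3 was at -0.22 and MAP3K7 at 0.06, and without GST-Ferry 1, TBK1 was at 0.00276, while the others kept their sign. The medians that follow were taken with every library kept in. Over all tested genes the median log2 fold change was -0.37 for transcripts under 40% GC, -0.21 from 40% to 45%, 0.10 from 50% to 55% and 0.33 from 60% to 65%, where 1.58% of 1712 genes were called higher.

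In an edgeR fit that carried GC content and length as offsets, the log2 fold change of TICAM1 was 1.67 (adjusted p = 0.0499), that of MYD88 0.68, those of TAB1 and TRAF3 0.31, that of RIPK1 0.25 and that of MAVS 0.16. In this fit IRF3 turned to -0.23, MAP3K7 to 0.15, TBK1 to 0.15 and TRAF6 to 0.01. The TICAM1 transcript, of 2676 bases in 2 exons, was longer than 44.5% of those tested.

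**Figure D3:**
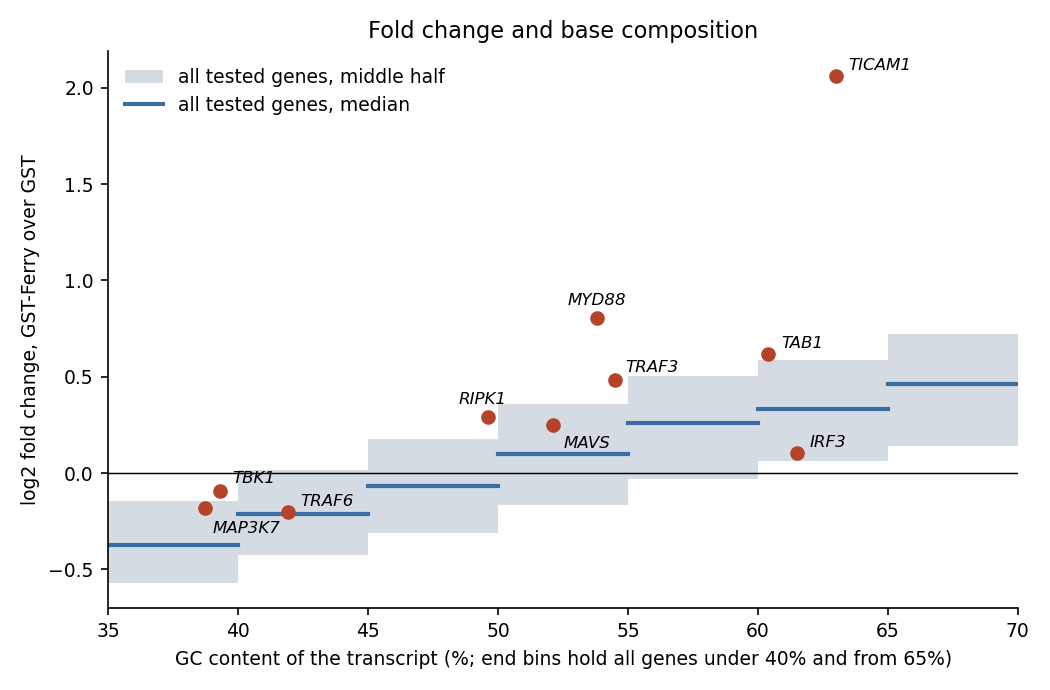
Log2 fold change of GST-Ferry over GST against the GC content of the transcript, for the 10 mRNAs (points) and for all tested genes in bins of GC content (blue bars, median; grey, 25th to 75th percentile). TICAM1, at 63% GC and picked for its value of 2.06, lies above the median of 0.33 of its bin, and IRF3, at 61.5%, below it.

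None of the tested genes within 10 kb of the 10 was called, beside 0.624% of all tested genes. They are so few that nothing is read from this. TICAM1 lies on chromosome 19, 4815932 to 4831704, minus strand (GRCh38, GENCODE 29). In the same annotation the other 9 are MYD88 at chr3:38138478-38143022 (plus strand), MAVS at chr20:3846799-3876123 (plus strand), TRAF3 at chr14:102777476-102911500 (plus strand), TRAF6 at chr11:36487027-36510272 (minus strand), TBK1 at chr12:64451880-64502108 (plus strand), RIPK1 at chr6:3063991-3115187 (plus strand), IRF3 at chr19:49659569-49665875 (minus strand), TAB1 at chr22:39399741-39437060 (plus strand), MAP3K7 at chr6:90513573-90587045 (minus strand). The TICAM1 neighbour PLIN3, a lipid droplet coat protein gene 6637 bases away on the same strand, had 30.7 ± 3.88 CPM with GST-Ferry and 22.2 ± 4.26 CPM with GST (log2 fold change 0.48 ± 0.22, adjusted p = 0.265 by edgeR's quasi-likelihood test). The antisense gene within 10 kb of TICAM1 had 1 count in all. IRF3 shares 734 bases with BCL2L12 on the opposite strand, and although the library kit keeps the strand, no source used here says whether the counting did, so their reads may be mixed. BCL2L12 had 55.6 ± 7.24 CPM with GST-Ferry and 44.2 ± 12 CPM with GST (log2 fold change 0.32, adjusted p = 0.469 in the edgeR test). Also beside IRF3, SCAF1 had 244 ± 18.8 and 131 ± 48.3 CPM (0.90, adjusted p = 0.107) and the arginine methyltransferase PRMT1 had 325 ± 95.8 and 181 ± 45.8 CPM (0.84, adjusted p = 0.12) with GST-Ferry and GST in the edgeR test. ACAA1 beside MYD88, RASSF3 and XPOT beside TBK1 and BPHL beside RIPK1 had log2 fold changes of 0.48, -0.17, -0.15 and -0.00168, with adjusted p-values from 0.239 to 0.997 by edgeR, and the remaining neighbours were not tested for lack of counts. Antisense genes among these overlap RIPK1 by 850 bases and TBK1 by 1022 bases, with 46 and 7 counts in all, so reads may be mixed there too.

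The rest of the pathways was read from 10 lists with 140 genes in the table, of which 112 were tested. By edgeR's quasi-likelihood test 0 were called, beside 0.624% of all tested genes in either direction. At an unadjusted p under 0.05 there were 23, or 20.5%, beside 19.3% of all tested genes. DESeq2 called 3, beside 4.51% of all tested genes, and limma-voom called 0, beside 0.0901%. The log2 fold change was above 0 in 62 of the 112, with a median of 0.07, and in 47.8% of all tested genes.

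Most Toll-like receptors were scarcely detected. TLR2, TLR7, TLR8 and TLR9 had 0 counts in every library, which allows up to 1.3 CPM in the shallowest GST-Ferry library and 0.442 CPM in the shallowest GST library. TLR3, whose adaptor is TICAM1, had 0.484 ± 0.715 CPM with GST-Ferry and 0.773 ± 0.365 CPM with GST (SD, n = 3 each), too few for the test, and TLR4 had 1 count in all. The 7 tested genes of this list had a median log2 fold change of -0.23. HSP90B1, the chaperone of Toll-like receptors in the endoplasmic reticulum, was both the most abundant and the most changed, with 419 ± 74.6 CPM with GST-Ferry and 537 ± 102 CPM with GST (-0.36 ± 0.22, adjusted p = 0.386 by edgeR).

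The other TIR adaptors were not called. TICAM2 (TRAM), which links TLR4 to TICAM1 and shares exons with a readthrough transcript of TMED7, had 1.28 ± 1.2 CPM with GST-Ferry and 1.01 ± 0.362 CPM with GST (log2 fold change 0.42 ± 0.67, adjusted p = 0.766 by edgeR's quasi-likelihood test). SARM1, the NAD-cleaving member of the family, had 22.1 ± 3.96 and 17.6 ± 1.7 CPM with GST-Ferry and GST (0.31 ± 0.23, adjusted p = 0.474 in the edgeR test). All 4 genes of the list had a log2 fold change above 0, the highest being that of TICAM2.

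Between receptors and NF-kappaB, the mRNA nearest to a call was that of an inhibitor. NFKBIB, which holds NF-kappaB in the cytoplasm, had 35.1 ± 7.99 CPM with GST-Ferry and 14.4 ± 3.5 CPM with GST, a log2 fold change of 1.26 ± 0.26 (adjusted p = 0.0507 by edgeR's quasi-likelihood test). Its kinase IKBKB, the most abundant of the IKK and NF-kappaB list, had 64.1 ± 7.4 and 83.7 ± 12.5 CPM with GST-Ferry and GST (-0.39 ± 0.20, adjusted p = 0.308 in the edgeR test), and the median of the 12 tested genes was 0.18. In the IRAK list (9 tested, median 0.41) the kinase IRAK1 had 176 ± 8.79 and 120 ± 30.2 CPM with GST-Ferry and GST (0.56 ± 0.21), and the inhibitory receptor SIGIRR had 6.92 ± 1.69 and 2.9 ± 1.08 CPM (1.18 ± 0.40), with adjusted p-values of 0.191 and 0.145 by edgeR. TRAF4 and TRAF1 in the list of other TRAFs (12 tested, median 0.13) had log2 fold changes of 0.53 ± 0.21 and -0.62 ± 0.43. MAPK9 and MAP2K3 in the list of MAP3K7 partners and MAP kinases (14 tested, median -0.21) had -0.18 ± 0.19 and 0.68 ± 0.23.

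Among the RIPK1 and linear ubiquitin genes (19 tested, median 0.06), RIPK3, the other RHIM kinase that binds TICAM1, had 0 counts in every library. The ubiquitin-conjugating enzyme UBE2N had 117 ± 12.5 CPM with GST-Ferry and 104 ± 33.2 CPM with GST (log2 fold change 0.16 ± 0.23, adjusted p = 0.732 by edgeR). Its partner UBE2V1 had 11.4 ± 1.77 and 22.8 ± 2.09 CPM with GST-Ferry and GST (-0.99 ± 0.24, adjusted p = 0.0671 by edgeR's quasi-likelihood test), the lowest fold change of all lists; it has a close paralog and a readthrough transcript, so its count is uncertain. Of the nucleic acid sensors (12 tested, median -0.05), the RNA helicase DDX3X was the most abundant at 882 ± 164 CPM with GST-Ferry and 993 ± 344 CPM with GST (-0.17 ± 0.26), and NLRX1, a mitochondrial partner of MAVS, had the largest change (0.62 ± 0.23, adjusted p = 0.184 by edgeR).

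At the output end, the most abundant of the list of other interferon regulatory factors and their binding proteins (9 tested, median 0.15) was IRF2BP2, an IRF2-binding protein, at 172 ± 26.8 CPM with GST-Ferry and 156 ± 28.2 CPM with GST, and IRF5 had the largest log2 fold change, 0.88 ± 0.38 (adjusted p = 0.229 by edgeR's quasi-likelihood test). IFNB1, the interferon-beta gene that TICAM1 signalling induces, had 0 counts in every library. In the list of output genes (14 tested, median 0.23) the kinase TYK2 was the most abundant, with 143 ± 12.4 and 134 ± 32.1 CPM with GST-Ferry and GST, and IFITM3, which has near-identical paralogs, had 3.13 ± 2.2 and 0.722 ± 0.402 CPM, a log2 fold change of 1.89 ± 0.60 (adjusted p = 0.132 by edgeR) on at most 13 counts a library. DESeq2, in contrast to edgeR, called NFKBIB and the interferon regulatory factor binding protein IRF2BP1 higher and UBE2V1 lower. With GST-Ferry 1 and GST 3 both left out, edgeR called 13 of the pathway genes, 9 of them higher, and 18% of all genes tested in that fit.

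**Figure D4:**
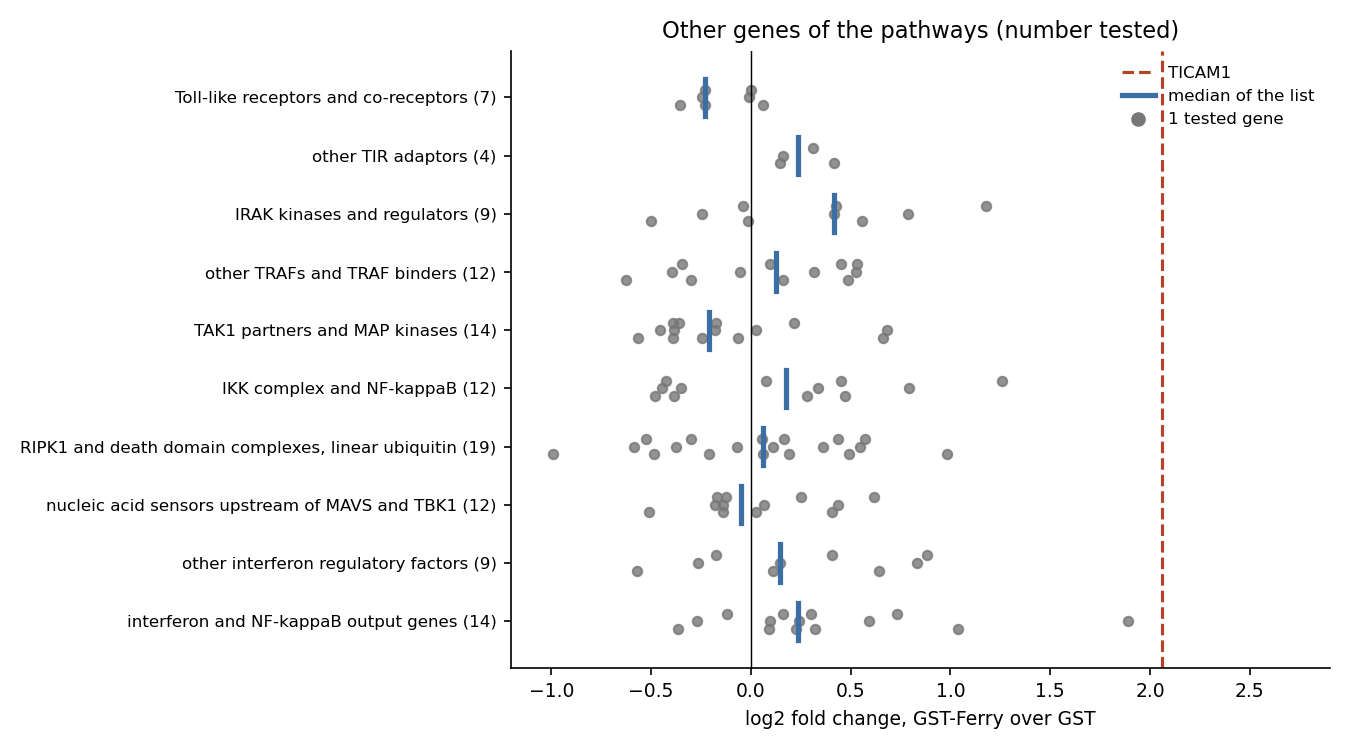
Log2 fold change of GST-Ferry over GST for the 112 tested genes of the 10 pathway lists (grey points, spread vertically for legibility), with the median of each list (blue bar) and TICAM1 for comparison (dashed line at 2.06). No point reaches the line, the nearest being IFITM3 at 1.89, and the list medians lie between -0.23 and 0.41. TICAM1 was picked for its fold change, so nothing is read from its place beyond the points.

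Outside these pathways, the mRNAs whose course over the 6 libraries came closest to that of TICAM1 were GSTP1, BEGAIN, ALKBH4, CRABP2 and PRDX1. Likeness was the root-mean-square difference, over the 6 libraries, of log2(CPM + 1) relative to the GST mean of each gene. It was 0.322 for the glutathione S-transferase GSTP1, 0.345 for BEGAIN, 0.395 for ALKBH4, 0.413 for the retinoic acid-binding protein CRABP2 and 0.416 for the peroxiredoxin PRDX1, against a median of 1.42 over 15545 genes. This measure also counts the size of the change, so a gene with little change lies far from TICAM1 whatever its course. All 5 were lower in GST-Ferry 1 than in GST-Ferry 2 and 3, which their choice by likeness to TICAM1 favours, so nothing is read from it. GSTP1, for example, had 423, 710 and 614 CPM in GST-Ferry 1, 2 and 3, against 180, 189 and 179 CPM in GST 1, 2 and 3. ALKBH4 had 22.2, 40.2 and 40 CPM with GST-Ferry and 14.2, 12.4 and 8.84 CPM with GST. The bait subunit mRNA PPP1R21 was also lowest in GST-Ferry 1, with 798, 18300 and 37600 CPM in GST-Ferry 1, 2 and 3 against 39.4, 44.6 and 40.8 CPM in GST 1, 2 and 3, but differed between GST-Ferry 2 and 3, where TICAM1 did not. GST-Ferry 1 thus differed from the other GST-Ferry libraries in bait mRNA, depth and TICAM1 together. With all libraries thinned to equal depth the log2 fold change of TICAM1 was 2.36, and with the bait subunit genes removed it was 2.06; the part of the bait level in it was not tested.

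**Figure D5:**
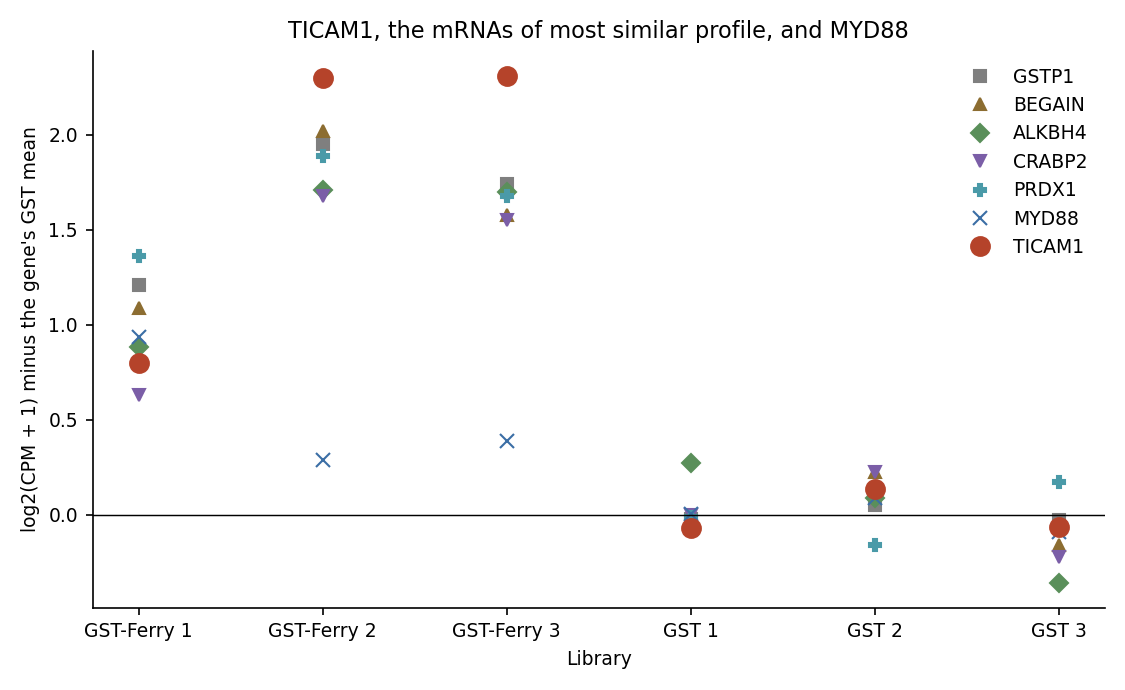
Log2(CPM + 1) minus the GST mean of the gene, in each library, for TICAM1 (large circles), the 5 mRNAs of most similar course and MYD88 (crosses). TICAM1 stands at 0.80 in GST-Ferry 1 and at 2.30 and 2.31 in GST-Ferry 2 and 3. MYD88 is the 1 shown whose highest value is in GST-Ferry 1, but it rests on 8 counts each in GST-Ferry 2 and 3.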

How the data were processed

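RNA from 3 GST-Ferry and 3 GST pulldowns was sequenced, and the authors deposited 1 table of raw read counts per gene. The submitters' processing notes list STAR 2.5.2b, bcl2fastq 2.19.1 and the build GRCh38.p13. The counting program, annotation, strand setting and treatment of multi-mapping reads are not given in the sources used here. Columns are named control or sample with a number, read as GST and GST-Ferry, number for number, which is an assumption from the words.

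Symbols, coordinates, lengths and GC content came from GENCODE 29 and a table of gene names; 1 principal transcript was taken per gene, which need not be the one expressed. Genes were filtered with filterByExpr (minimum count 10, minimum total 15), scaled with TMM, and tested with edgeR 4.0.16 (R 4.3.3) by the quasi-likelihood test, two-sided, without covariate, with Benjamini-Hochberg adjustment over 15546 genes; called means an adjusted p under 0.05. CPM uses the TMM-scaled library sizes (factors 0.923 to 1.1), on which 3 counts are 0.273 to 1.3 CPM. The SE was taken from the size of the fold change and the test statistic.

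The genes and the pathway lists were chosen with earlier results of these data known. Named are all 10 genes, of each pathway list the called, the most abundant and the most changed tested gene, the tested neighbours within 10 kb, and the 5 genes most like TICAM1 in course. SCO2, TWF2, PPP1R21, C12orf4, TBCK, TLR2, TLR3, TLR4, TLR7, TLR8, TLR9, RIPK3, IFNB1, IRF2BP1, CD3E and HBB were chosen with their values seen. GATD1 and CRYZL1 were added as the other bait subunit mRNAs, also with their values seen. No label ties the replicates to separate cultures; the spread behind the p-values may then be technical only. No 2 libraries of a bait agreed within counting noise, and all were counted as separate samples. Poisson intervals and limits from 3 counts cover counting error only. Alternatives were other scalings, filters, DESeq2 1.42.0, limma-voom (limma 3.58.1), a replicate block, a threshold of 0.01, libraries left out, equal depth, bait genes removed, and offsets for GC content and length. Figures were drawn with matplotlib 3.10.9.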

Additional observations from a re-analysis of the deposited data

How the results depend on the processing

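TICAM1 kept a log2 fold change above 0 in every alternative run. Its call was lost with RLE size factors (log2 fold change 2.04, adjusted p = 0.0518 by edgeR's quasi-likelihood test, as for the others here), library sizes alone (1.97, adjusted p = 0.067), limma-voom (1.77, adjusted p = 0.0768 by limma) and at a threshold of 0.01 (2.06), and with 1 library left out it ran from 1.79 to 2.47 (adjusted p = 0.00596 to 0.425). The count of genes called higher and lower, 92 and 5, became 11 and 0 with RLE, 7 and 0 with library sizes alone, 14 and 0 with limma-voom, 421 and 323 without the filter, 524 and 177 with DESeq2, 0 and 0 at 0.01, 146 and 19 at equal depth, 158 and 42 with offsets for GC content and length, and 1754 and 992 with GST 3 and GST-Ferry 1 both left out. With 1 library left out it ran from 0 and 0 without GST-Ferry 2 (910 and 794 at an unadjusted p under 0.05 by edgeR), and 3 and 0 without GST-Ferry 3 or GST 2, to 701 and 558 without GST 3; the cause was not tested. Of the 10 genes, 0 were called with RLE, library sizes alone, limma-voom or at 0.01, and 0 to 1 with 1 library left out. With GST 3 and GST-Ferry 1 both left out 3 were called, beside 18% of all tested genes. Of the pathway genes, 3 were called without the filter, beside 421 higher and 323 lower of all 32648 genes tested there. With DESeq2 3 were called, beside 4.51% of all tested genes, and with GST 3 and GST-Ferry 1 both left out 13, beside 18%. With 1 library left out 0 to 3 pathway genes were called. The 3 were without GST 3, beside 701 higher and 558 lower of all 15765 genes tested there.

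The sign turned for TBK1 without GST-Ferry 1, for IRF3 and MAP3K7 without GST 3, for TBK1, IRF3 and MAP3K7 with GST 3 and GST-Ferry 1 both left out (0.0594, -0.12 and 0.14), and for TRAF6, TBK1, IRF3 and MAP3K7 with the offsets (0.00556, 0.15, -0.23 and 0.15). With 1 library left out, TBK1 ran from -0.28 to 0.00276, IRF3 from -0.22 to 0.34 and MAP3K7 from -0.32 to 0.0632.

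Whether the replicate numbers pair the libraries was not settled. The correlation of deviations from the group means was 0.24, 0.0792 and -0.173 for numbers 1, 2 and 3. The value for number 1 was the highest of any GST-Ferry and GST pair, but GST-Ferry 2 and 3 correlated best with GST libraries of other numbers. Deviations within a group of 3 are tied to one another, so these correlations cannot decide it. With the number as a replicate block, 167 genes were called higher and 28 lower, 1 of the 10 genes was called (TICAM1, log2 fold change 1.95, adjusted p = 0.00989 by edgeR) and 1 pathway gene, NFKBIB. MYD88 rests on 8 counts each in GST-Ferry 2 and 3, and it had no adjusted p at equal depth, with DESeq2 or with a minimum of 5 CPM in 3 libraries.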
